A study of Danio rerio with 16 samples.

Results

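The cytoplasmic ribosomal proteins were taken as the rows of the gene count table whose names begin with rpl or rps and a digit, with rplp0, rplp1, rplp2 or with rpsa, leaving out the kinases named rps6k. The rule found 84 of the 32520 rows, with 83 distinct names, because rpl37 has 2 rows. Of these, 48 were large-subunit rows (rpl and rplp) and 36 were small-subunit rows (rps and rpsa). The filter on low counts left 83 rows among the 23555 genes tested. The row left out was rpl26, a large-subunit protein mutated in a few patients with Diamond-Blackfan anaemia in human, which had between 0 and 16 counts per library and was at 0 in 3 libraries. Rps19bp1 is matched by name but encodes a binding partner of the ribosomal protein S19 and not a subunit of the ribosome. Conversely, genes such as faua, faub and rack1 encode ribosomal proteins that the naming rule leaves out, and these are described separately.

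The cytoplasmic ribosome consists of a small subunit, which decodes the messenger RNA, and a large subunit, which forms the peptide bond and carries the exit tunnel and the stalk that recruits translation factors. Most of its proteins are needed in equal numbers, and their messenger RNAs in vertebrates start with a short pyrimidine tract through which their translation is regulated together. In the early zebrafish embryo, ribosomes loaded into the egg are gradually replaced by newly made ones, and mutants of single ribosomal protein genes typically show growth and blood defects.

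RNA was sequenced from pools of 10 whole zebrafish (Danio rerio) embryos that were homozygous for a CRISPR/Cas9-induced mutation of fbn2b, a fibrillin gene encoding an extracellular microfibril protein (fbn2b-/-; the labels and the count table call the gene fbn2b, and the study calls it fbn3), or wild type (WT, fbn2b +/+), at 1 and 2 days postfertilization (dpf). The groups used were fbn2b-/- at 2 dpf (5 libraries), WT at 2 dpf (3 libraries), fbn2b-/- at 1 dpf (3 libraries), and WT at 1 dpf (4 libraries). The study describes the WT embryos as siblings and lines made in fish carrying a green fluorescent reporter of endothelium or of neutrophils. It describes a frameshift and an in-frame deletion of the same exon, and the labels do not say which line was sequenced. The study introduces its homozygous embryos through the frameshift line but names no line for the sequencing. It also describes a mild and a severe cardiac form among the homozygous embryos, so a pool can mix embryos of different severity. In whole embryos, fewer cells that express a gene and less RNA per cell cannot be told apart.

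Total gene counts ranged from 41473603 to 179887580 per library. Levels are given as CPM, the counts of a gene scaled to a common library size with TMM factors, and since gene lengths were not used, levels are compared between groups for 1 gene and never between genes. The targeted gene fbn2b lay between 15.1 and 20.8 CPM in fbn2b-/- embryos, against 164 to 239 CPM in WT embryos at 2 dpf. At 1 dpf it lay between 19.5 and 28.7 CPM in fbn2b-/- embryos, against 103 to 337 CPM in WT embryos. The labels were thus matched by the targeted gene in each library, with log2 fold changes of -3.51 (SE 0.27, FDR 1.22e-05) at 2 dpf and -3.02 (SE 0.31, FDR 0.00149) at 1 dpf by edgeR's quasi-likelihood test. Fitted with the libraries of that stage alone, the value at 1 dpf was -3.01 with an FDR of 0.151. Of 39 markers of 14 cell types of the whole embryo, 38 were tested, and each cell type had a marker at 1 CPM or more in every group. The libraries were split by library number into a lower-numbered and a higher-numbered set. The numbers run on without a gap at the split, and the labels do not call the sets batches. No fbn2b-/- library at 1 dpf belonged to the higher-numbered set, so genotype and set are partly confounded at that stage.

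Ribosomal protein messenger RNAs made up a smaller share of the counts at 2 dpf than at 1 dpf in both genotypes. In fbn2b-/- embryos their share was 7.07%, 6.91%, 6.68%, 7.25%, and 8.24% at 2 dpf, against 9.70%, 9.57%, and 9.52% at 1 dpf. The share in WT embryos was 7.77%, 6.71%, and 8.15% at 2 dpf, against 11.7%, 10.3%, 10.7%, and 9.37% at 1 dpf. The stages did not overlap in either genotype. The genotypes overlapped at both stages, with group means of 7.23% ± 0.602 (SD, n = 5) in fbn2b-/- and 7.54% ± 0.745 (SD, n = 3) in WT embryos at 2 dpf. At 1 dpf the share averaged 9.59% ± 0.0891 (SD, n = 3) in fbn2b-/- and 10.5% ± 0.982 (SD, n = 4) in WT embryos. The 3 fbn2b-/- libraries at 1 dpf lay close together, whereas the WT libraries spread on both sides of them, with WT replicate 5 below and the other WT replicates above.

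**Figure D1:**
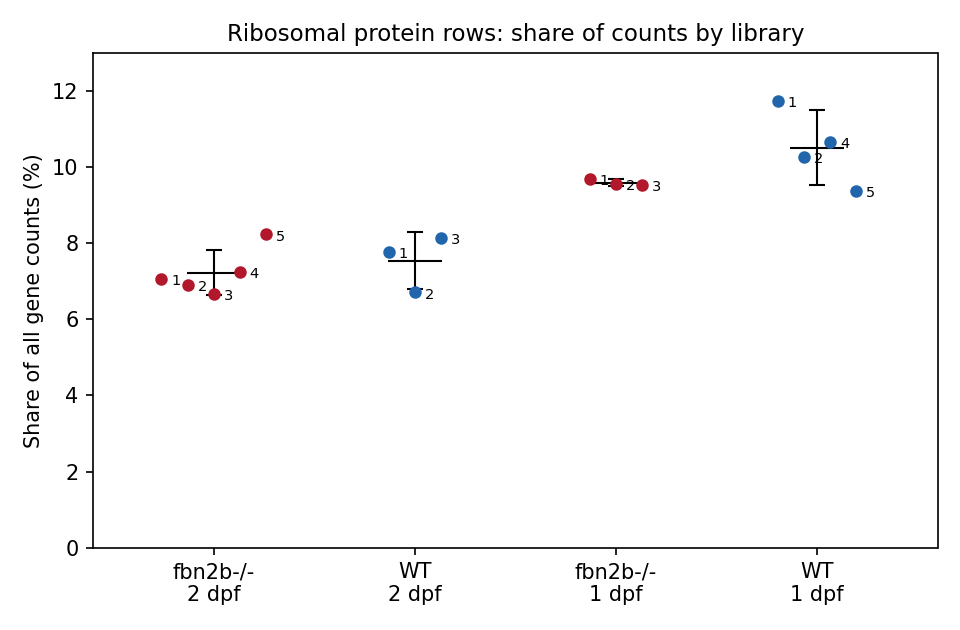
Share of all gene counts (%, y axis) that fell on the 84 ribosomal protein rows in each library, with fbn2b-/- in red, WT in blue, replicate numbers beside the points, and black bars for the group mean and SD. The libraries at 2 dpf lie between 6.68% and 8.24%, all below the libraries at 1 dpf, which lie between 9.37% and 11.7%, while the genotypes overlap within each stage.

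The first comparison was between stages. In fbn2b-/- embryos, 77 of the 83 tested rows differed between 2 and 1 dpf at an FDR under 0.05, beside 56.3% of all genes tested. Of these, 76 were lower at 2 dpf, beside 27% of all genes, and 1 was higher, with a median log2 fold change of -0.47 against 0.00 over all genes. The most negative change was -0.95 (rpl7l1), and the lower and upper quartiles of the rows were -0.52 and -0.41. All libraries at 2 dpf lay below all libraries at 1 dpf for 79 rows, beside 27.3% of all genes.

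In WT embryos, which share no library with the fbn2b-/- comparison, 81 of the 83 tested rows differed between the stages, beside 54.6% of all genes tested. Of these, 80 were lower at 2 dpf, beside 27.6% of all genes, and 1 was higher. The median log2 fold change of the rows was -0.62, against -0.04 over all genes tested. The most negative change was -1.35 (rpl7l1), and the quartiles were -0.68 and -0.56. Every library at 2 dpf lay below every library at 1 dpf for 72 rows, beside 24% of all genes. Large- and small-subunit rows moved by similar amounts, with medians of -0.49 and -0.46 in fbn2b-/- and of -0.63 and -0.61 in WT embryos. The stage fall was also present within library sets, with a median difference over the rows of -0.57 in the lower-numbered fbn2b-/- libraries (3 against 3), -0.64 in the lower-numbered WT libraries (1 against 2), and -0.52 in the higher-numbered WT libraries (2 against 2).

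Markers of cell types of the whole embryo moved between the stages as well. Of the markers of dividing cells, 3 of 3 (pcna, mki67, and top2a) had lower group means at 2 dpf in both genotypes. Their summed level lay between 1069 and 1511 CPM at 2 dpf, against 2446 to 2665 CPM at 1 dpf in fbn2b-/- embryos. In WT embryos it lay between 1208 and 1536 CPM at 2 dpf, against 2307 to 3149 CPM at 1 dpf. Markers of neurons (elavl3, elavl4, gap43, and snap25a) were higher at 2 dpf in 4 of 4 in both genotypes, with sums between 902 and 1222 CPM at 2 dpf, against 407 to 459 CPM at 1 dpf in fbn2b-/- embryos. In WT embryos the neuronal sum lay between 1114 and 1393 CPM at 2 dpf, against 432 to 531 CPM at 1 dpf. Markers of muscle (ckma, mylpfa, myhz2, and actc1b) were higher at 2 dpf in 4 of 4 in fbn2b-/- and in 3 of 4 in WT embryos. The muscle sum lay between 15512 and 26564 CPM at 2 dpf, against 7044 to 13303 CPM at 1 dpf in fbn2b-/- embryos, and between 15187 and 20824 CPM at 2 dpf, against 8107 to 23002 CPM at 1 dpf in WT embryos. The sums of dividing cells and neurons were separated by stage in both genotypes, and that of muscle in fbn2b-/- embryos but not in WT embryos. Of the other types, the hatching gland sum was lower at 2 dpf, with 125 to 303 CPM against 1078 to 1598 CPM in fbn2b-/- embryos. In WT embryos it was 175 to 291 CPM, against 746 to 1965 CPM at 1 dpf. The liver sum was also lower, and those of lens, neutrophils, and macrophages were higher, without overlap in either genotype. The 2 liver markers went opposite ways in both genotypes. The abundant tfa, which made up most of the sum, had lower group means at 2 dpf. Fabp10a was higher, with group means of 0.89 CPM in fbn2b-/- and 0.99 CPM in WT embryos at 2 dpf, against 0.03 and 0.02 CPM at 1 dpf. The remaining types overlapped in WT, in fbn2b-/- or in both. None of the markers of dividing cells, neurons, and muscle was at 0 in any library. The part of any of these cell types in the fall of the ribosomal protein rows was not tested.

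**Figure D2:**
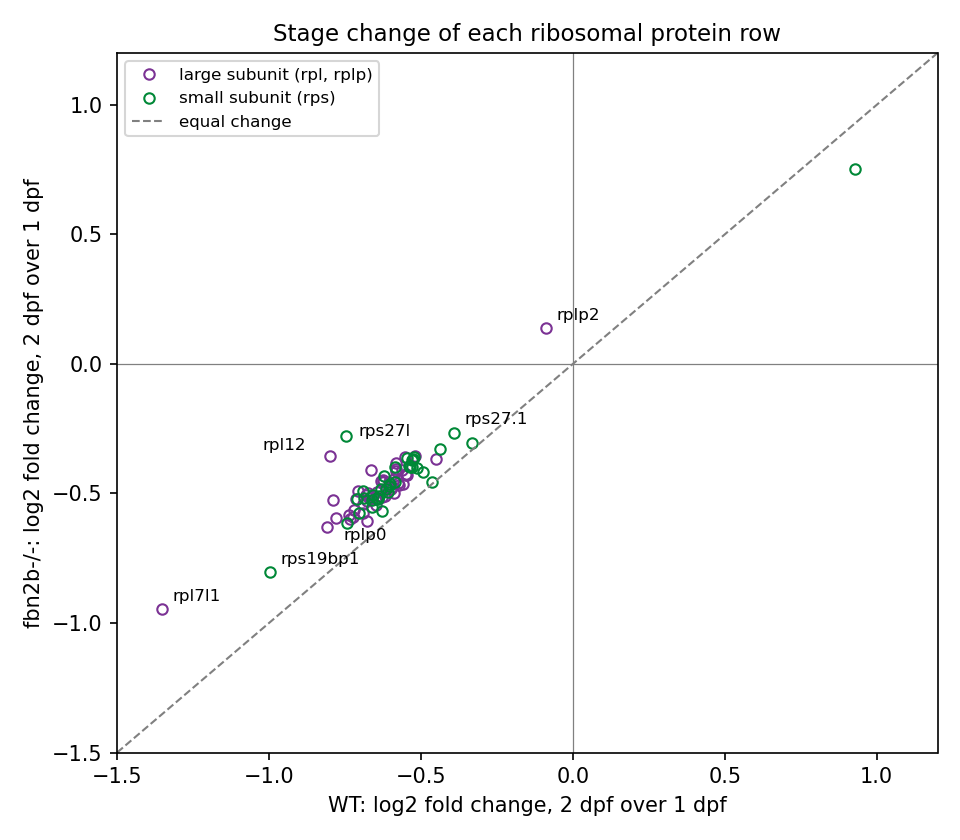
Log2 fold change of each of the 83 tested rows, 2 dpf over 1 dpf, in fbn2b-/- embryos (y axis) and in WT embryos (x axis), with large-subunit rows in purple, small-subunit rows in green and a dashed line of equal change. Most rows form a tight cloud around the medians of -0.47 and -0.62, and of the labelled rows rpl7l1 and rps19bp1 lie below it and rplp2 above it.

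Rplp0, the scaffold of the stalk that binds elongation factors, was among the 5 falling rows with the lowest FDR in both genotypes. Rplp0 in fbn2b-/- embryos measured 2334, 2349, 2276, 2471, and 2483 CPM at 2 dpf, against 3704, 3576, and 3500 CPM at 1 dpf. In WT embryos it measured 2712, 2021, and 2660 CPM at 2 dpf, against 5058, 3957, 4172, and 3749 CPM at 1 dpf. The stages were fully separated in both genotypes, and the log2 fold changes were -0.59 (SE 0.13, FDR 0.00104) in fbn2b-/- and -0.78 (SE 0.14, FDR 0.000215) in WT embryos. Rplp1, which forms heterodimers with rplp2 on the stalk, fell with log2 fold changes of -0.44 (FDR 0.0115) in fbn2b-/- and -0.59 (FDR 0.00305) in WT embryos.

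Rplp2, the partner of rplp1 on the same stalk, did not follow. The fbn2b-/- embryos had 344, 313, 310, 329, and 342 CPM at 2 dpf, against 320, 296, and 276 CPM at 1 dpf. In WT embryos it measured 333, 305, and 369 CPM at 2 dpf, against 490, 352, 310, and 278 CPM at 1 dpf. The stages overlapped in both genotypes, and the log2 fold changes of 0.14 (SE 0.14, FDR 0.434) in fbn2b-/- and -0.09 (SE 0.15, FDR 0.636) in WT embryos did not pass the test. Relative to the mean of all rows, rplp2 was higher at 2 dpf by 0.60 in fbn2b-/- and 0.54 in WT embryos on the log2 scale, with no overlap between stages in either genotype. Its paralogue rplp2l fell like the rest of the family, with log2 fold changes of -0.61 (SE 0.14, FDR 0.0015) in fbn2b-/- and -0.68 (SE 0.15, FDR 0.00121) in WT embryos. The log2 ratio of rplp2l to rplp2 was therefore lower at 2 dpf, with 0.86 ± 0.16 (SD, n = 5) at 2 dpf against 1.62 ± 0.12 (SD, n = 3) at 1 dpf in fbn2b-/- embryos. The ratio in WT embryos was 0.94 ± 0.12 (SD, n = 3) at 2 dpf against 1.55 ± 0.16 (SD, n = 4) at 1 dpf. The highest ratio at 2 dpf was 1.11 and the lowest at 1 dpf was 1.35, so the stages were separated over all 15 libraries. In the RefSeq annotation of another zebrafish assembly (GRCz12tu), rplp2 and rps26l are the only neighbouring pair among the 82 member names found, which lie on 25 chromosomes. Rps26l fell, with log2 fold changes of -0.61 (FDR 0.00238) in fbn2b-/- and -0.74 (FDR 0.00104) in WT embryos.

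Rpl7l1 fell most. Its yeast counterpart Rlp7 acts in the assembly of the large subunit and is not a stable part of the ribosome. The fbn2b-/- embryos had 47.4, 53.6, 48.4, 66.2, and 79.2 CPM at 2 dpf, against 98.7, 118, and 125 CPM at 1 dpf. In WT embryos it measured 62.3, 38.2, and 35.1 CPM at 2 dpf, against 125, 118, 120, and 97.9 CPM at 1 dpf. The stages were separated in both genotypes, and the log2 fold changes were -0.95 (SE 0.19, FDR 0.000497) in fbn2b-/- and -1.35 (SE 0.21, FDR 5.7e-05) in WT embryos. Its paralogue rpl7, a stable part of the large subunit, moved by -0.50 in fbn2b-/- and -0.65 in WT embryos, close to the family medians. The other row that is not a structural ribosomal protein, rps19bp1, had the lowest FDR of all rows in both genotypes. In fbn2b-/- embryos it measured 18.3, 19.96, 18.7, 24.4, and 25.9 CPM at 2 dpf, against 34.1, 37.1, and 41.2 CPM at 1 dpf. In WT embryos it measured 22.6, 18.3, and 19.8 CPM at 2 dpf, against 39.9, 40.9, 42.4, and 38.0 CPM at 1 dpf. The stages did not overlap in either genotype, and the log2 fold changes were -0.80 (SE 0.12, FDR 3.88e-05) in fbn2b-/- and -0.997 (SE 0.13, FDR 1.27e-05) in WT embryos.

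**Figure D3:**
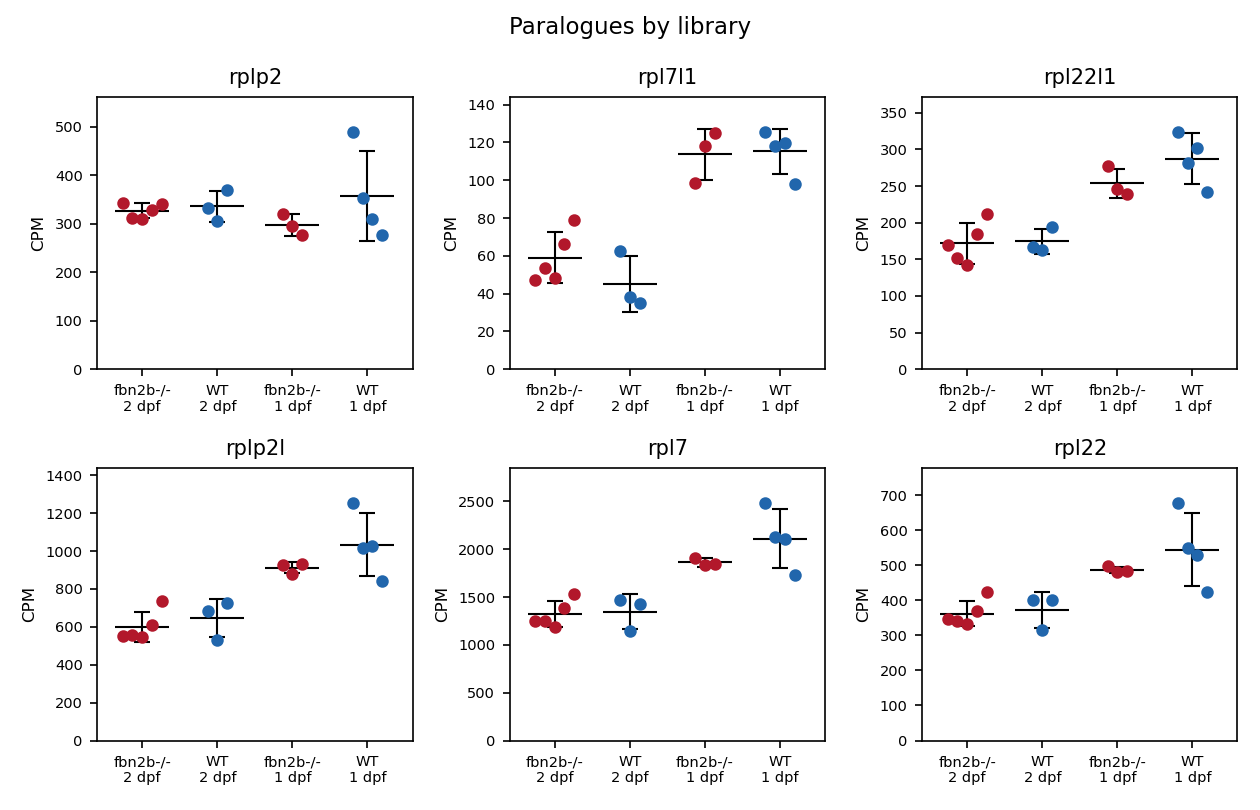
CPM (y axis, from 0) of 3 paralogue pairs in each library, with fbn2b-/- in red and WT in blue, each dot a library and black bars for the group mean and SD. Rplp2 overlaps between the stages while rplp2l is lower, and rpl7l1, rpl7, rpl22l1, and rpl22 are all lower at 2 dpf.

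The other paralogues described kept closer to each other. Reads of near-identical copies may be split between them, and how reads that fit several places were counted is not given in the sources used here. Rpl22l1 and rpl22, which have been linked to blood cell development in mouse and zebrafish, fell with log2 fold changes of -0.56 and -0.43 in fbn2b-/- and -0.72 and -0.55 in WT embryos, all past the test. Rpl5a and rpl5b, 2 copies of the protein that carries the 5S ribosomal RNA, changed by -0.52 and -0.54 in fbn2b-/- embryos and both by -0.65 in WT embryos, and their log2 ratio moved between stages by 0.02 or less in size. Among the copies of rps27, a zinc-finger protein of the small subunit, rps27.1 and rps27.2 had small changes of -0.27 (FDR 0.119) and -0.30 (FDR 0.0249) in fbn2b-/- embryos. Their values in WT embryos were -0.39 (FDR 0.0367) and -0.33 (FDR 0.0219). The WT calls of both were lost without WT replicate 1 at 1 dpf or WT replicate 2 at 2 dpf, that of rps27.1 also without WT replicate 4 at 1 dpf, and the fbn2b-/- call of rps27.2 without any of the replicates at 1 dpf or replicate 3 at 2 dpf. Both WT calls were also lost with the WT libraries fitted alone (FDR 0.161 and 0.134), with upper quartile scaling, and with no filter on low counts. The fbn2b-/- call of rps27.2 was also lost with upper quartile scaling and with library set as a covariate. The third copy, rps27l, whose human counterpart is a p53 target, had 15.9, 18, 17.2, 13.2, and 16.7 CPM at 2 dpf, against 19, 19, and 20.7 CPM at 1 dpf in fbn2b-/- embryos. Rps27l in WT embryos had 14.1, 12.9, and 15.7 CPM at 2 dpf, against 35.1, 23.8, 19.3, and 17.5 CPM at 1 dpf. The stages were separated in both genotypes, and the change did not pass the test in fbn2b-/- (-0.28, FDR 0.196) and passed it in WT embryos (-0.75, FDR 0.00341). The difference between these changes was 0.47 and did not pass the interaction test. Of the 2 rows named rpl37, the one with more reads changed by -0.41 in fbn2b-/- and -0.58 in WT embryos, and the one with 5.7 to 10.8 CPM by -0.47 in fbn2b-/- and -0.59 in WT embryos, all past the test.

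Genes of the 5S particle and of Diamond-Blackfan anaemia, a human disease of red cell production, behaved like the family as a whole. Rpl11, which together with rpl5 binds the p53 regulator MDM2 in mammals, fell with log2 fold changes of -0.51 (FDR 0.00244) in fbn2b-/- and -0.66 (FDR 0.000599) in WT embryos. Rps19, the gene most often mutated in the disease, measured 629, 685, 622, 667, and 789 CPM at 2 dpf, against 918, 900, and 860 CPM at 1 dpf in fbn2b-/- embryos. In WT embryos it measured 795, 569, and 761 CPM at 2 dpf, against 1288, 1040, 1046, and 876 CPM at 1 dpf. The stages did not overlap in either genotype, and its log2 fold changes were -0.40 (SE 0.13, FDR 0.0194) in fbn2b-/- and -0.59 (SE 0.14, FDR 0.00274) in WT embryos. The fbn2b-/- call of rps19 was lost without fbn2b-/- replicate 1 (FDR 0.0564) or 2 (FDR 0.0541) at 1 dpf. Other genes of this group (rps24, rpl35a, rps7, rps10, rps26, rps29, and rpl15) all passed the test in both genotypes, with changes between -0.51 (rps7) and -0.36 (rps29) in fbn2b-/- and between -0.71 (rpl15) and -0.51 (rps26) in WT embryos. Some of these calls were near the threshold, and their fold changes without a library stayed negative. For WT embryos, rps26 missed the threshold without WT replicate 2 at 2 dpf (-0.31, FDR 0.108) and without WT replicate 1 at 1 dpf (-0.36, FDR 0.0548). It also missed it with the WT libraries fitted alone (FDR 0.0715). With upper quartile scaling the fbn2b-/- calls of rps26 and rps29 were lost, and with library set as a covariate that of rps26. The fbn2b-/- call of rps29 was lost without fbn2b-/- replicate 1 or 2 at 1 dpf or replicate 2 or 3 at 2 dpf, and that of rps26 without replicate 1 or 3 at 1 dpf or replicate 1, 2, or 3 at 2 dpf, with FDR up to 0.122 and, for rps26, log2 fold changes between -0.39 and -0.37.

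The members with other known roles fell as well. Rps6, the small-subunit protein phosphorylated by S6 kinase downstream of mTOR, had changes of -0.52 (FDR 0.00284) in fbn2b-/- and -0.71 (FDR 0.000487) in WT embryos. Rpl4 and rpl17, which line the exit tunnel, fell with log2 fold changes of -0.60 and -0.52 in fbn2b-/- and -0.73 and -0.67 in WT embryos. Rpsa, also known as a laminin receptor precursor, fell with changes of -0.36 in fbn2b-/- and -0.54 in WT embryos. The fbn2b-/- change of rpsa missed the threshold without fbn2b-/- replicate 1 (FDR 0.0651) or 3 at 1 dpf or replicate 1 at 2 dpf. The WT change of rpsa missed it with the WT libraries fitted alone (FDR 0.0608). Rps27a, made as a fusion with ubiquitin, fell with changes of -0.46 in fbn2b-/- and -0.60 in WT embryos. Rps4x, a protein of the small subunit, was among the 5 falling rows with the lowest FDR in fbn2b-/- embryos (-0.58, FDR 0.00114), and rpl10a, a protein of the large subunit, was among those in WT embryos (-0.79, FDR 0.000166). In fbn2b-/- embryos the rows that did not pass the stage test were rplp2, rpl9, rpl12, rps21, rps27.1, and rps27l, with FDR between 0.0564 (rps21) and 0.434 (rplp2). Beside rplp2, the row that did not pass in WT embryos was rpl9 (-0.66, FDR 0.0782), a large-subunit gene with 7.9 to 28.3 CPM.

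The second comparison was between genotypes, and at neither stage did a ribosomal protein row pass the test. At 2 dpf, 0 of the 83 rows had an FDR under 0.05, beside 0.233% of all genes, and 0 had an unadjusted p under 0.05, beside 10.4% of all genes. The median log2 fold change, fbn2b-/- over WT, was -0.06 against 0.01 over all genes, the smallest FDR was 0.512, and 74 rows were lower and 9 higher. The widest value was 0.39 (SE 0.19, FDR 0.512) for rpl7l1, which had 47.4, 53.6, 48.4, 66.2, and 79.2 CPM in fbn2b-/- embryos, against 62.3, 38.2, and 35.1 CPM in WT embryos. No row had all fbn2b-/- libraries below all WT libraries, beside 2.45% of all genes. DESeq2, limma-voom, and edgeR's likelihood ratio test also called 0 rows for genotype at either stage. The median at 2 dpf was 0.00 without WT replicate 1, 0.01 without WT replicate 3, and -0.20 without WT replicate 2. The sign of the small shift at 2 dpf differed between the library sets. In the lower-numbered libraries (3 against 1) 81 rows were lower in fbn2b-/- embryos with a median of -0.26, and in the higher-numbered libraries (2 against 2) 81 rows were higher with a median of 0.15.

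At 1 dpf, 0 of the 83 rows had an FDR under 0.05, beside 0.00425% of all genes, which was fbn2b itself. One row had an unadjusted p under 0.05 (1 of 83), beside 7.34% of all genes. The median log2 fold change was -0.20 against -0.03 over all genes, with 82 rows lower and 1 higher in fbn2b-/- embryos and a smallest FDR of 0.611. The shift was much the same across the family, with the lower and upper quartiles at -0.22 and -0.17. Its size moved with single WT libraries in either direction. Without WT replicate 1, which had the highest share of ribosomal protein counts, the median was -0.10 with 77 rows lower, and 1 row had an unadjusted p under 0.05. Without WT replicate 5, which had the lowest share, the median was -0.28 with all 83 rows lower, and 33 rows had an unadjusted p under 0.05. With replicates 1 to 3 alone the median was -0.32 and 46 rows had an unadjusted p under 0.05, or -0.33 and 42 rows with the replicate number as a block. By DESeq2 over all libraries, 6 rows had an unadjusted p under 0.05. The share of all genes past this cut was not computed for these alternative fits, so their row counts have no background beside them. None of these fits called a row at an FDR under 0.05, and their smallest FDR lay between 0.247 (DESeq2) and 0.541 (without WT replicate 1). Within the lower-numbered libraries (3 against 2) all 83 rows were lower in fbn2b-/- embryos, with a median of -0.32, and the higher-numbered set held WT libraries only. With library set as a covariate over all libraries the median was -0.22, again with 0 rows called. For the named rows an exact 2-sided permutation test, run for 76 comparisons of a row between genotypes at a stage, gave no p under 0.05. The smallest was 0.0571 (adjusted 0.869 over the 76), where the smallest the design allows is 0.0286 at 1 dpf and 0.0179 at 2 dpf.

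Rpl12, a protein at the base of the stalk, had the most negative genotype value at 1 dpf. It was outside the rule for named genes and is given here because of its values. It measured 1224, 1154, and 1382 CPM in fbn2b-/- embryos, against 1769, 1732, 2318, and 1639 CPM in WT embryos at 1 dpf. All fbn2b-/- libraries lay below all WT libraries, as they did for 6 rows in all (among them rpl12, rpl8, rplp0, rps3a, and rps4x), beside 2.99% of all genes. The log2 fold change of rpl12 was -0.57 (SE 0.20), with an FDR of 0.611. At 2 dpf rpl12 measured 824, 788, 750, 1194, and 1345 CPM in fbn2b-/- embryos, against 956, 1094, and 1162 CPM in WT embryos, and the genotypes overlapped. Within fbn2b-/- embryos at 2 dpf, the higher-numbered replicates 4 and 5 lay above the lower-numbered replicates 1 to 3.

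**Figure D4:**
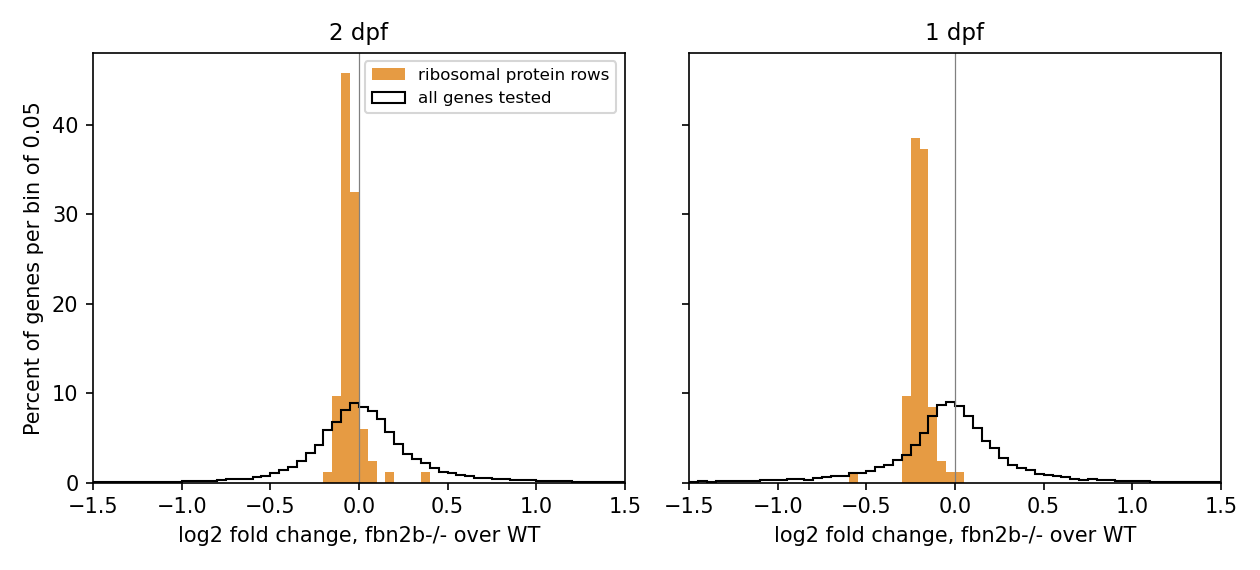
Percent of genes (y axis) in bins of 0.05 of the log2 fold change of fbn2b-/- over WT (x axis, drawn from -1.5 to 1.5), at 2 dpf on the left and 1 dpf on the right, for the 83 ribosomal protein rows in orange and all 23555 genes tested as a black outline. The rows form narrow peaks around -0.06 at 2 dpf and -0.20 at 1 dpf, inside the wider spread of all genes.

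The stage change was also compared between genotypes. No row passed the interaction test (0 of 83, beside 0.00425% of all genes), and 0 rows had an unadjusted p under 0.05, beside 5.51% of all genes. The stage change in fbn2b-/- minus that in WT embryos had a median of 0.15 against 0.05 over all genes. On the positive side were 82 rows, beside 13441 of all 23555 genes tested. Without WT replicate 2 at 2 dpf the median of the rows was -0.0079. Across the 83 rows, the stage changes in fbn2b-/- and WT embryos had a Pearson correlation of 0.94 and a Spearman correlation of 0.79, and over all genes tested both were 0.89. The Pearson value of the rows was thus above that of all genes, and the Spearman value below it. Rows far from the rest, such as rpl7l1, weigh more in the Pearson value. Both correlations are descriptions across genes, which are not independent replicates.

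The rows also varied together among replicates of a group. With each library set against the mean of its group, the median correlation of a row with the mean of the other rows was 0.97 over the 15 libraries, and 75 of the 83 rows were above 0.8. Of all other genes tested, 0.66% were above 0.8 with the mean of the rows, and their median was 0.01. The mitochondrial ribosomal protein genes among them had a median correlation of 0.56 with the mean of the rows. Values of 1 library share its total and scaling factor. In WT embryos at 1 dpf, all 83 rows were below the group mean in replicate 5 and 81 were above it in replicate 1, with mean deviations of -0.28 and 0.29 on the log2 scale. At 2 dpf, 81 rows were above the group mean in fbn2b-/- replicate 5 (0.23) and 80 were below it in WT replicate 2 (-0.23). Lower correlations were found for rows such as rpl12 (0.43), the less abundant rpl37 row (0.45), rps19bp1 (0.56), rpl7l1 (0.58), rpl9 (0.61), rps27l (0.61), and rplp2 (0.80).

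**Figure D5:**
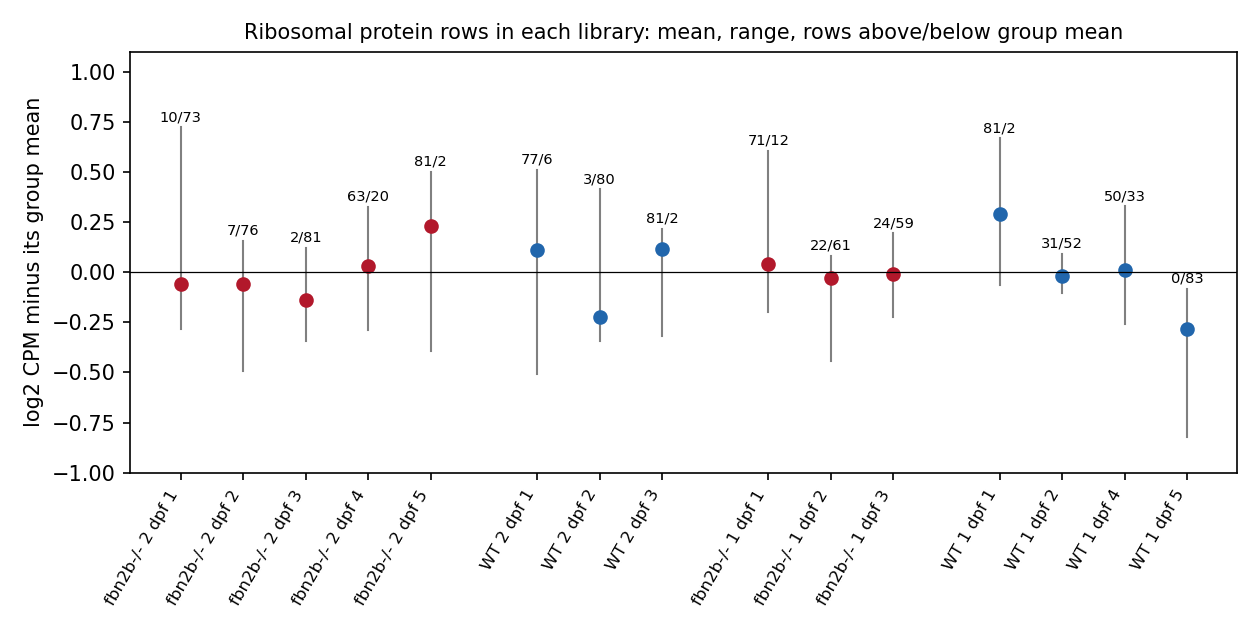
Log2 CPM of the 83 rows in each library minus the mean of the library's group (y axis), with a dot for the mean over rows (fbn2b-/- red, WT blue), a grey line for the range over rows, and the numbers of rows above and below the group mean. Nearly all rows lie above the group mean in WT 1 dpf replicate 1 and fbn2b-/- 2 dpf replicate 5, and nearly all below it in WT 1 dpf replicate 5 and WT 2 dpf replicate 2.

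Other genes of protein synthesis fell between the stages too, by different amounts. Calls here are at an FDR under 0.05. Of all genes tested, 27% were called lower at 2 dpf in fbn2b-/- and 27.6% in WT embryos. In either direction, 56.3% were called in fbn2b-/- and 54.6% in WT embryos. The 4 tested ribosomal proteins outside the naming rule include faua, faub, and rack1. Their median was -0.40 in fbn2b-/- embryos, where 3 of 4 were called lower, and -0.58 in WT embryos, where all 4 were. The 74 mitochondrial ribosomal protein genes serve the separate ribosome of the mitochondrion. In fbn2b-/- embryos 45 were called lower and 0 higher (median -0.35, with 72 lower by sign). In WT embryos 69 were called lower and 0 higher (median -0.58, with all 74 lower by sign). Ribosome biogenesis factors fell further, with 92 of 97 called lower in fbn2b-/- (median -0.94) and 95 of 97 in WT embryos (median -1.20). None was called higher in either, and all 97 were lower by sign in both genotypes. Among them, fbl, the methyltransferase of small nucleolar particles, had changes of -1.33 (FDR 6.43e-06) in fbn2b-/- and -1.60 (FDR 3.85e-06) in WT embryos. The nucleolar protein npm1a had -1.32 (FDR 0.000112) in fbn2b-/- and -1.73 (FDR 3.17e-05) in WT embryos. Polr1a, the largest subunit of RNA polymerase I, had -1.09 (FDR 6.67e-05) in fbn2b-/- and -1.40 (FDR 1.93e-05) in WT embryos.

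Translation factors were mixed, with 48 of 80 called lower and 7 called higher in fbn2b-/- embryos (median -0.39). In WT embryos 55 were called lower and 8 higher (median -0.54). By sign, 65 were lower in fbn2b-/- and 70 in WT embryos. The elongation factor eef1a1l1 fell with log2 fold changes of -0.67 (FDR 0.00146) in fbn2b-/- and -0.78 (FDR 0.000888) in WT embryos. The related eef1a1a rose, with log2 fold changes of 3.29 (FDR 4.46e-07) in fbn2b-/- and 2.82 (FDR 1.04e-06) in WT embryos. Between genotypes, 0 genes of these 4 lists passed the test at either stage. Counted by sign, 91 of 97 biogenesis factors were higher in fbn2b-/- embryos at 2 dpf (median 0.31) and 65 at 1 dpf (median 0.05). Of the mitochondrial ribosomal protein genes, 63 of 74 were higher at 2 dpf (median 0.12) and 70 lower at 1 dpf (median -0.11). Over all genes tested, 48.4% were lower at 2 dpf and 55.1% at 1 dpf. At 2 dpf npm1a measured 290, 142, and 137 CPM in WT embryos, against 211, 255, 213, 273, and 341 CPM in fbn2b-/- embryos. For npm1a, fbl, and polr1a, WT replicates 2 and 3 (higher-numbered) lay below every fbn2b-/- library. WT replicate 1 (lower-numbered) lay above fbn2b-/- replicates 1 to 3 for these genes.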

How the data were processed

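Stranded total RNA libraries of pooled whole embryos were sequenced by the authors, who per the labels and methods aligned reads to GRCz11 with STAR 2.7.6a after Trim Galore 0.6.6 and counted them with featureCounts of Subread 2.0.0. What they deposited are raw counts, unscaled integers of reads assigned to each gene. The strand setting, the handling of multiply aligned reads, and the annotation are not given in the sources used here. Of 23 count columns, 15 were matched by name to a listed sample, 8 were not used, and 1 listed sample (WT replicate 3 at 1 dpf) had no matching column.

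Genes were kept with filterByExpr (minimum count 10, minimum total 15), scaled with TMM, and fitted over the 4 groups in 1 model with edgeR 4.0.16 (quasi-likelihood F test, R 4.3.3), with Benjamini-Hochberg adjustment over 23555 genes and a threshold of FDR under 0.05. CPM used TMM-scaled library sizes, and log2 CPM a prior count of 2. Alternatives included DESeq2 1.42.0 and limma 3.58.1. Figures were drawn with matplotlib 3.10.9. No duplicate libraries were found (highest correlation 0.992). P-values of the fit set a difference between groups against the spread between these pools, and no counting intervals were computed. Whether same-numbered replicates were paired is not known, and the main fit treated them as unpaired.

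Members and lists were chosen with earlier results of these data known. Named rows were the 5 with the lowest FDR in each direction per stage comparison, paralogues, rows with a fixed role (stalk, 5S particle, Diamond-Blackfan anaemia, exit tunnel, others), any row that is not a ribosomal protein by name, and fbn2b. Levels per length were planned but not run, since no lengths were at hand. Values of some members are not reported here.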

Additional observations from a re-analysis of the deposited data

Results flagged for a closer look

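Among 82 groups of values tested for a library far from the rest (groups of 4 to 10 libraries), 4 stood out, and chance alone gives about 1 in 20. All 4 were fbn2b-/- replicate 5 at 2 dpf, the library in which 81 of the 83 ribosomal protein rows lay above the group mean. On the log2 CPM scale, the value was 10.23 for the ubiquitin fusion gene rps27a (nearest library 9.98), 8.41 for rps27.2 (nearest 8.22), 10.40 for the stalk gene rplp1 (nearest 10.21), and 10.03 for the exit tunnel gene rpl17 (nearest 9.74). These rows moved together in that library and are not independent of each other. Without this library, no row passed the genotype test at 2 dpf either, and the median genotype difference at 2 dpf was -0.13.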

How the results depend on the processing

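The numbers of ribosomal protein rows called stayed within 1.5 times the main count under every alternative run. Genotype and interaction gave 0 calls in each. The stage counts ranged from 61 (without fbn2b-/- replicate 1 at 1 dpf) to 79 in fbn2b-/- embryos. In WT embryos they ranged from 68 (without WT replicate 2 at 2 dpf) to 82. Beside the lowest counts, 12542 of 23969 genes tested were called in fbn2b-/- and 10945 of 23817 in WT embryos. Fits with the highest counts called 13120 to 13683 genes in fbn2b-/- and 12690 or 12766 in WT embryos. With single libraries left out, the median stage change in WT ranged from -0.71 to -0.47 and the interaction median from -0.0079 (without WT replicate 2 at 2 dpf) to 0.23. The genotype median at 1 dpf was -0.10 without WT replicate 1, -0.28 without WT replicate 5 (33 rows with an unadjusted p under 0.05, against 1 with all libraries), -0.32 with replicates 1 to 3 (46 rows), and -0.33 with the replicate block (42 rows). The share of all genes with an unadjusted p under 0.05 was not computed for these alternative fits. At 2 dpf the genotype median was 0.00 without WT replicate 1, 0.01 without WT replicate 3, and -0.20 without WT replicate 2. Fbn2b at 1 dpf was -3.01 but missed the threshold (FDR 0.151) when the libraries of that stage were fitted alone. For the named rows, 29 of 1026 stage results in fbn2b-/- embryos lost the call and 1 gained it, 19 of 1026 in WT embryos lost it, and none changed direction past the test. With replicates 1 to 3, the replicate block gave 78 rows for the stage in fbn2b-/- and 81 in WT embryos, against 79 and 81 without the block, and 0 for genotype and interaction. Of the 23589 genes tested there, 13038 and 11210 were called for the stage with the block, against 13427 and 12060 without it. Same-numbered libraries correlated from -0.22 to 0.30. Without correlations of differently numbered libraries beside it, this range cannot show whether the numbers pair samples, and the main fit used no pairing. The comparison of levels between rows per coding length was not run.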
